A study of Mus musculus with 15 samples.

Results

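Toll-like receptors are the innate sensors of microbial products, and Myd88 is the adaptor protein that most of them share. The 10 genes described here are Tlr1, Tlr2, Tlr3, Tlr4, Tlr6, Tlr7, Tlr8, Tlr9, Tlr13 and Myd88, taken by gene name from the deposited table of 48709 genes, of which 22813 had a read in at least 1 sample. They were followed in pancreatic islets of NOD mice, a strain in which leukocytes infiltrate the islets (insulitis) and diabetes develops spontaneously. Islets were isolated by collagenase digestion from NOD females at 5 ages (4, 6, 8, 10 or 12 weeks), with 3 mice at each age and 1 library per mouse, 15 in all. All groups carry the NOD genotype and no treatment is named for any of them, so age is the only variable, no other strain serves as a control, and each age was compared with the one before it, and 12 weeks also with 4 weeks. Isolated islets hold endocrine cells together with vessels and any leukocytes in or on them.

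Toll-like receptors fall into those that sit at the cell surface and those that signal from endosomes. At the surface, Tlr2 pairs with Tlr1 or Tlr6 to bind bacterial lipopeptides, and Tlr4 recognises lipopolysaccharide. In endosomes, Tlr3 binds double-stranded RNA, Tlr7 and Tlr8 are receptors for single-stranded RNA, Tlr9 detects unmethylated CpG DNA and Tlr13 detects bacterial ribosomal RNA. Myd88 couples all of these receptors except Tlr3 to Irak kinases and NF-kB, and Tlr3 signals through the adaptor Ticam1. The receptors are best known from macrophages, dendritic cells and B cells, but Tlr2, Tlr3, Tlr4 and Myd88 are also found outside the immune system.

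The gene starts of the members were viewed in RefSeq promoter windows (GRCm38.p6, 250 bases before to 50 bases after a transcript start), which matched 8 of the 10 members in 10 windows, with none matched for Tlr4 and Tlr7. They are shown for Tlr1 and Tlr9, which had the largest differences between 4 and 12 weeks among the members with a window, for Tlr2, which had the smallest, and for the adaptor Myd88. Of the 2 windows of Tlr1 the one with a match is shown, and the Myd88 window belongs to a transcript start inside the gene region of the deposited table. The windows are reference sequence and not that of the NOD strain. Sequences run 5′ to 3′ along the strand of the gene, and capitals mark matches, on either strand, to any of 4 motifs: an NF-kB motif (GGGA, any base, TT, any base, CC), an interferon-stimulated response element (GAAA repeated with any 2 bases between), an AP-1 motif (TGANTCA) and the core of a PU.1 motif (GAGGAA). Tlr1 is on the minus strand at chr5:64933509-64933808, Tlr9 on the plus strand at chr9:106222348-106222647, Tlr2 on the minus strand at chr3:83841559-83841858 and Myd88 on the minus strand at chr9:119339969-119340268.
Tlr1: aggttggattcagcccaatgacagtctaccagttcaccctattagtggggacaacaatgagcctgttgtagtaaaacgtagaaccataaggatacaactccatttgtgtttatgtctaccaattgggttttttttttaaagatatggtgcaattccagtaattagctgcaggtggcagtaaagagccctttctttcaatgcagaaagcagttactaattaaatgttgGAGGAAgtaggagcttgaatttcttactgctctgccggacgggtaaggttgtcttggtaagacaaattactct
Tlr9: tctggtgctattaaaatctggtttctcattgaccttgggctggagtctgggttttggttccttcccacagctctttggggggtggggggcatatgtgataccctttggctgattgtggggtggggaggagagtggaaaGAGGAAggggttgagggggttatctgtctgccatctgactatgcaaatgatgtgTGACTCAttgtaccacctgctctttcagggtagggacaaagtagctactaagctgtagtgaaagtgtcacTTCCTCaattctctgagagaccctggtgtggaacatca
Tlr2: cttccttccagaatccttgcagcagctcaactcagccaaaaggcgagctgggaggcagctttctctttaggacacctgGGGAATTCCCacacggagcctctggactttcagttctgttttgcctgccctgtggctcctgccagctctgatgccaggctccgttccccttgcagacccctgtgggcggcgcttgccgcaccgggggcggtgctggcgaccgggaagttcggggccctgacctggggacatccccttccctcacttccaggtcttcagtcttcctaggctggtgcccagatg
Myd88: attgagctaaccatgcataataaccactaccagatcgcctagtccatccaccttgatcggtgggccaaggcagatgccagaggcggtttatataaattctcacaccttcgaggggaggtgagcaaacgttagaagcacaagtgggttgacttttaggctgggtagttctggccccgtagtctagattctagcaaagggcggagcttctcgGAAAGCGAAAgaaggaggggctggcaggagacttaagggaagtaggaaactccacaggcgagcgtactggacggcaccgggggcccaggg

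The Tlr1 window held 1 PU.1 core, 23 to 18 bases before the start, and the Tlr9 window held 2 PU.1 cores and 1 AP-1 motif. PU.1 cores also lay in the windows of Tlr8 and Tlr13, but these letters occurred in 28.3% of all 32851 RefSeq promoter windows, and those of AP-1 in 7.81%. The palindrome GGGAATTCCC in the Tlr2 window, 172 to 163 bases before the start, matched the NF-kB motif on both strands. An NF-kB match was also present in the window of Tlr3, and 1.2% of all windows had one. The interferon-stimulated response element lay 40 to 31 bases before the start in the Myd88 window, and 2 overlapping matches lay in 1 of the 2 Tlr6 windows, against 3.44% of all windows. The start of that Tlr6 window lies inside the gene region, and the bases after it were found in no annotated Tlr6 transcript. These matches are descriptions of the letters, and no binding was measured.

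All 10 members passed the filter on low counts that kept 16554 genes. Levels are given as CPM, in which a gene's count is divided by the library total after TMM scaling for library make-up. The libraries held 25407492 to 41616275 counts, and 3 counts, taken as the lowest level that can be read, corresponded to 0.0754 to 0.128 CPM. The lowest member count in any mouse was 5 reads, for Tlr8. The endocrine markers (8 genes including the insulin and glucagon genes) summed to 140619 to 326616 CPM over the 15 mice, so the markers that define islet tissue were abundant in each library. The summed macrophage markers ran from 78.6 to 236 CPM at 4 weeks and from 1193 to 1358 CPM at 12 weeks. In these bulk samples, fewer cells of a type and less RNA per cell cannot be told apart.

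Between 4 and 12 weeks 9 of the 10 members rose, and Tlr2 was the exception. A gene is called changed at an adjusted p under 0.05 (edgeR, Benjamini-Hochberg over all genes tested), and 26.3% of the genes tested were called higher in this comparison. For the same 9 members the lowest mouse of 12 weeks lay above the highest of 4 weeks, as for 30.3% of the genes tested. The median log2 fold change was 2.73 over the 10 members and -0.048 over all genes. Called members ranged from 1.89-fold for Tlr3 to 21.1-fold for Tlr1, and all 9 calls were kept when any single mouse was left out. Without 4-week replicate 1 the fold of 4 of them was over 1.5 times as large, with a log2 fold change of 5.57 for Tlr1, 4.43 for Tlr7, 4.30 for Tlr9 and 3.79 for Tlr13. With a leukocyte marker covariate in the fit, described further on, none of the 9 was called, nor any other gene tested. By group, the median log2 fold change was 2.35 over the 4 surface receptors, of which 3 were called, and 3.04 over the 5 endosomal receptors, all of which were called.

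**Figure D1:**
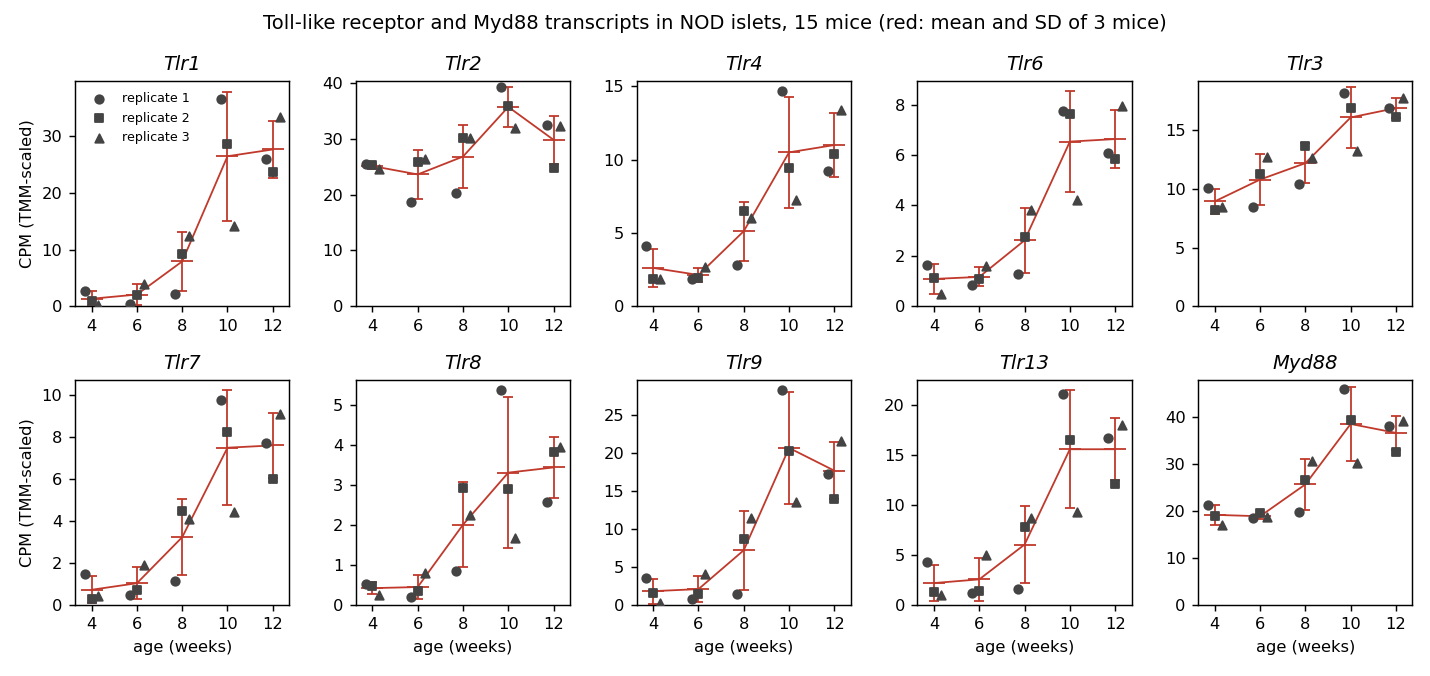
Level of each member (CPM, linear axis from 0) in every mouse against age, with symbols for replicates 1, 2 and 3 and red bars for the mean and SD of 3 mice. Most receptors sit near the bottom of their axis at 4 and 6 weeks and at their upper level at 10 and 12 weeks, whereas Tlr2 stays between 18.6 and 39.2 CPM throughout.

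Among the surface receptors, Tlr1 (chr5:64924679-64933563, minus strand) showed the largest difference. In the mice numbered 1, 2 and 3 of each age, in that order here and below, its level was 2.73, 0.941 and 0.253 CPM at 4 weeks, 0.357, 1.89 and 3.90 CPM at 6 weeks and 2.12, 9.24 and 12.4 CPM at 8 weeks. It then reached 36.7, 28.7 and 14.2 CPM at 10 weeks and 26.0, 23.7 and 33.4 CPM at 12 weeks. Every mouse of 10 or 12 weeks was therefore above every younger mouse, whereas the first mouse of 8 weeks lay within the range of 4 and 6 weeks. Between 4 and 12 weeks its log2 fold change was 4.40 ± 0.860 (SE, adjusted p = 0.00129, edgeR).

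Tlr6 (chr5:64952031-64960097, minus strand), the alternative partner of Tlr2, lies 18467 bases from Tlr1. Its level was 1.65, 1.11 and 0.470 CPM at 4 weeks, 0.832, 1.08 and 1.58 CPM at 6 weeks and 1.28, 2.75 and 3.82 CPM at 8 weeks. Tlr6 reached 7.74, 7.61 and 4.22 CPM at 10 weeks and 6.09, 5.85 and 7.95 CPM at 12 weeks, again with every mouse of 10 and 12 weeks above the younger ones. For 12 against 4 weeks the log2 fold change was 2.62 ± 0.462 (SE, adjusted p = 0.000741, edgeR). The log2 ratio of Tlr1 to Tlr6 was -0.13 ± 0.82 (SD, n = 3) at 4 weeks and 2.06 ± 0.04 (SD, n = 3) at 12 weeks, without overlap between mice (exact permutation p = 0.1, two-sided, the smallest that 3 against 3 mice allow). Of the 50-base stretches of annotated Tlr1 transcripts, 13.6% also occur in Tlr6. The reads sequenced were longer than this and paired, so the figure is not a share of reads that fit both genes. That share was not computed.

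Tlr4 (chr4:66827584-66930284, plus strand), the lipopolysaccharide receptor, was measured at 4.12, 1.88 and 1.85 CPM at 4 weeks, 1.82, 1.89 and 2.68 CPM at 6 weeks and 2.81, 6.53 and 6.04 CPM at 8 weeks. At 10 weeks its level was 14.7, 9.42 and 7.28 CPM, and at 12 weeks 9.24, 10.4 and 13.4 CPM. The mice of 6 weeks did not overlap those of 8 weeks, nor those of 8 weeks the mice of 10 weeks. Tlr4 rose between 4 and 12 weeks with a log2 fold change of 2.07 ± 0.390 (SE, adjusted p = 0.00105, edgeR).

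Tlr2 (chr3:83836272-83841767, minus strand), the shared partner of Tlr1 and Tlr6, was the one receptor that was not called. It stood at 25.5, 25.3 and 24.6 CPM at 4 weeks, 18.6, 25.8 and 26.3 CPM at 6 weeks and 20.2, 30.1 and 30.1 CPM at 8 weeks. At 10 weeks it was measured at 39.2, 35.9 and 32.0 CPM and at 12 weeks at 32.4, 24.8 and 32.3 CPM, so that the oldest mice overlapped the youngest. Its log2 fold change at 12 against 4 weeks was 0.25 ± 0.168 (SE, adjusted p = 0.232, edgeR). With library totals in place of TMM scaling it was 0.49 and called (adjusted p = 0.0436, edgeR), a scaling that also moved the median of all genes by 0.245. The log2 ratio of Tlr1 to Tlr2 was -4.86 ± 1.69 (SD, n = 3) at 4 weeks and -0.11 ± 0.19 (SD, n = 3) at 12 weeks, without overlap (exact permutation p = 0.1, two-sided). Across the 5 ages jointly Tlr2 was called (adjusted p = 0.0453, edgeR), but leaving out any of 9 of the 15 mice ended that call, with an adjusted p (edgeR) of 0.057 to 0.146. These were all mice of 4 weeks, replicates 1 and 2 of 6 and of 10 weeks, and replicates 1 and 3 of 12 weeks. The other 9 members were called in the joint comparison with and without each mouse, and 56% of all genes were called in it.

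Of the endosomal receptors, Tlr9 (chr9:106222598-106226883, plus strand), the CpG DNA sensor, had the widest span between mice of 4 weeks. Its level was 3.56, 1.58 and 0.253 CPM at 4 weeks, a 14.0-fold span, then 0.713, 1.47 and 4.02 CPM at 6 weeks and 1.42, 8.66 and 11.5 CPM at 8 weeks. At 10 weeks Tlr9 was at 28.3, 20.3 and 13.6 CPM and at 12 weeks at 17.3, 14.0 and 21.6 CPM, above every younger mouse. Tlr9 rose between 4 and 12 weeks with a log2 fold change of 3.30 ± 0.838 (SE, adjusted p = 0.00568, edgeR).

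Tlr13 (chrX:106143204-106160493, plus strand), the sensor of bacterial ribosomal RNA, was at 4.27, 1.28 and 0.977 CPM at 4 weeks, 1.23, 1.42 and 5.01 CPM at 6 weeks and 1.57, 7.84 and 8.71 CPM at 8 weeks. It was at 21.1, 16.5 and 9.34 CPM at 10 weeks and at 16.7, 12.1 and 18.0 CPM at 12 weeks. The first mouse of 4 weeks and the third of 6 weeks were the high ones of their ages, as they were for Tlr9. The log2 fold change at 12 against 4 weeks was 2.84 ± 0.718 (SE, adjusted p = 0.00552, edgeR).

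Tlr7 (chrX:167304929-167330558, minus strand) and Tlr8 (chrX:167242696-167264329, minus strand), the single-stranded RNA receptors, lie 40599 bases apart. Tlr7 was at 1.46, 0.257 and 0.434 CPM at 4 weeks, 0.475, 0.710 and 1.89 CPM at 6 weeks, 1.13, 4.46 and 4.11 CPM at 8 weeks, 9.77, 8.26 and 4.45 CPM at 10 weeks and 7.71, 6.02 and 9.09 CPM at 12 weeks. Tlr8, the least abundant member, was at 0.524, 0.470 and 0.253 CPM at 4 weeks, 0.198, 0.342 and 0.788 CPM at 6 weeks, 0.839, 2.92 and 2.25 CPM at 8 weeks, 5.36, 2.89 and 1.66 CPM at 10 weeks and 2.56, 3.81 and 3.93 CPM at 12 weeks. For both genes the mice of 8 and 10 weeks overlapped, while those of 4 and 12 weeks did not. The log2 fold change at 12 against 4 weeks was 3.39 ± 0.679 for Tlr7 (SE, adjusted p = 0.00149, edgeR) and 3.04 ± 0.592 for Tlr8 (SE, adjusted p = 0.00126, edgeR). The log2 ratio of Tlr7 to Tlr8 was 0.46 ± 1.21 (SD, n = 3) at 4 weeks and 1.15 ± 0.47 (SD, n = 3) at 12 weeks, a difference within the spread between mice (exact permutation p = 0.6, two-sided).

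Tlr3 (chr8:45395665-45411080, minus strand), the double-stranded RNA receptor, had the smallest log2 fold change of the endosomal receptors, and its 3 oldest mice spanned 1.11-fold. It was at 10.1, 8.21 and 8.47 CPM at 4 weeks, 8.44, 11.3 and 12.7 CPM at 6 weeks, 10.4, 13.7 and 12.6 CPM at 8 weeks, 18.2, 16.9 and 13.2 CPM at 10 weeks and 16.9, 16.1 and 17.8 CPM at 12 weeks. All mice of 12 weeks were above those of 4, 6 and 8 weeks. Its rise from 4 to 12 weeks was 0.92 ± 0.165 on the log2 scale (SE, adjusted p = 0.000808, edgeR).

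The adaptor Myd88 (chr9:119335934-119341411, minus strand) was at 21.4, 19.0 and 17.1 CPM at 4 weeks, 18.5, 19.5 and 18.7 CPM at 6 weeks and 19.8, 26.7 and 30.6 CPM at 8 weeks. It was at 46.1, 39.4 and 30.2 CPM at 10 weeks and at 38.1, 32.6 and 39.3 CPM at 12 weeks. All mice of 12 weeks were above those of 4, 6 and 8 weeks, and the mice of 10 weeks overlapped those of 8 weeks. The log2 fold change at 12 against 4 weeks was 0.94 ± 0.168 (SE, adjusted p = 0.0008, edgeR), close in size to that of Tlr3. The log2 ratio of Tlr3 to Myd88 was -1.10 ± 0.10 (SD, n = 3) at 4 weeks and -1.11 ± 0.08 (SD, n = 3) at 12 weeks, with no difference beyond the spread (exact permutation p = 0.9, two-sided). Myd88 overlaps Acaa1a, a peroxisomal thiolase gene on the opposite strand, and whether the counting used strand is not stated. Acaa1a had more counts than Myd88 over the 15 libraries (33328 against 12474), and its log2 fold change was -0.08 at 12 against 4 weeks (adjusted p = 0.29, edgeR).

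The steps between neighbouring ages were examined in turn. At 6 against 4 weeks 0 of the 10 members were called (edgeR), 0 had an unadjusted p under 0.05, and 0 separated the ages without overlap. DESeq2 also called 0 members. Log2 fold changes were positive for 7 members and negative for Tlr2, Tlr4 and Myd88, from -0.30 for Tlr4 to 0.64 for Tlr1. Of all genes, 0.00604% were called higher and 0.0846% lower in this comparison, 8.67% had an unadjusted p under 0.05, and the ages separated without overlap for 8.34% that were higher and 9.28% that were lower.

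At 8 against 6 weeks every member had a positive log2 fold change, with a median of 1.26 against -0.011 over all genes. The adjusted p was not under 0.05 for any of the 10 members or any other gene (edgeR, 0% called), although 7 members had an unadjusted p under 0.05 against 18% of all genes. At the study's threshold for DEGs (fold change of at least 1.5 and unadjusted p under 0.05), Tlr1, Tlr4, Tlr6, Tlr7, Tlr8 and Tlr9 were higher, 6 of the 10 members, against 8.4% of all genes. Tlr8 had the largest log2 fold change, 2.19 ± 0.583 (SE), followed by Tlr1 with 1.95 ± 0.789 (SE). The mice did not overlap for Tlr4, Tlr8 and Myd88, 3 of the 10 members, against 7.62% of genes that were higher in this way. Without 6-week replicate 1, 6-week replicate 2 or 8-week replicate 3 the DEG count fell to 2, and without 8-week replicate 2 to 3. The share of all genes higher at this threshold also fell, to 5.45%, 4.73%, 4.09% and 5.9% in that order. DESeq2 called 2 members, Tlr4 and Tlr8, where 2.64% of all genes were called higher, and edgeR without 8-week replicate 1 called 3, Myd88, Tlr4 and Tlr8, where 4.29% were. With the leukocyte marker covariate described further on, 0 members passed the DEG threshold as higher and 2, Tlr9 and Tlr13, as lower, against 1.24% and 2.27% of all genes.

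At 10 against 8 weeks every log2 fold change was again positive, with a median of 1.12 against -0.005 over all genes. Myd88 was the single member called (log2 fold change 0.59 ± 0.166 SE, adjusted p = 0.0364, edgeR), and 8.4% of all genes were called higher. The DEG threshold was met by Myd88, Tlr1, Tlr4 and Tlr6, 4 of the 10 members, against 11.1% of all genes. Myd88, with a fold change of 1.5, lay at the threshold. It did not meet it with the 2 ages alone, without the filter, with the replicate block or in the exact test. In the edgeR exact test 6 members met it, Tlr1, Tlr4, Tlr6, Tlr7, Tlr9 and Tlr13, against 11% of all genes higher. For 6 members the mice of 8 and 10 weeks did not overlap, against 17.2% of genes. Without 8-week replicate 1 or 2, or without 10-week replicate 1 or 2, 0 members were called, with an adjusted p for Myd88 of 0.0817 to 0.153 (edgeR). In each of these fits 0% of all genes were called, so the loss was not particular to Myd88. Without 8-week replicate 3 there were 2 calls, against 10.5% of all genes called higher, and without 10-week replicate 3 there were 4, against 16%. The call of Myd88 was also lost with the 2 ages fitted alone (adjusted p = 0.173, edgeR) and in the exact test of edgeR (0.158). It was lost too with the leukocyte marker covariate (0.381) and when replicate numbers entered as a block (0.0692). Of all genes, 0% were called higher in these fits, except for 0.654% in the exact test. DESeq2 called 4 members, Tlr2, Tlr4, Tlr6 and Myd88, and 14.1% of all genes higher. The DEG count fell to 1 without 8-week replicate 1 or 10-week replicate 1, and to 2 without 10-week replicate 2. Over all genes the share higher at this threshold fell to 6.07%, 5.94% and 7.1%, in that order.

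Between 10 and 12 weeks 0 members were called by edgeR or DESeq2, 0 had an unadjusted p under 0.05 and 0 separated without overlap. The median log2 fold change of the members was 0.02, with values from -0.26 for Tlr2 to 0.07 for Tlr3 and Tlr4. No gene of the 16554 was called in this comparison (0%), 7.52% had an unadjusted p under 0.05, and 4.42% were higher and 5.4% lower without overlap. The largest single step was from 6 to 8 weeks for Tlr1, Tlr4, Tlr7, Tlr8 and Tlr9 and from 8 to 10 weeks for Tlr2, Tlr3, Tlr6, Tlr13 and Myd88. This order turned on single mice of 8 weeks: the step from 6 to 8 weeks was the larger of these 2 for 5 members with all mice, for 9 without 8-week replicate 1 and for 2 without replicate 2 or without replicate 3. No test compared one step with the next.

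**Figure D2:**
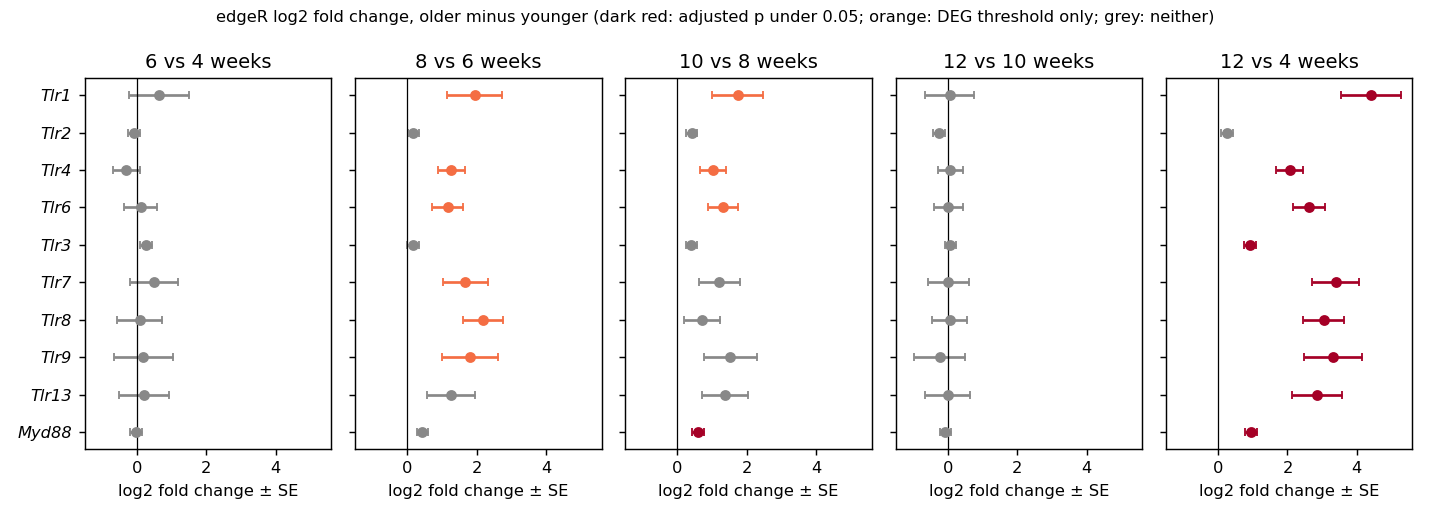
Log2 fold change (older minus younger, bars ± SE, edgeR) of each member in the 5 comparisons, coloured by whether the adjusted p was under 0.05, the DEG threshold alone was met, or neither. Points at 6 against 4 and at 12 against 10 weeks are grey and lie between -0.30 and 0.64, all points at 8 against 6 and 10 against 8 weeks are above 0, and 9 of 10 are dark red at 12 against 4 weeks.

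The make-up of the receptor transcripts differed between ages. On a per-length scale (TPM, the authors' transcript abundance corrected for gene length), the most abundant of the 9 receptors at 4 weeks was Tlr2 with 16.0 ± 0.805 TPM (SD, n = 3), followed by Tlr3 with 3.31 ± 0.521 TPM. The remaining 7 receptors had means of 0.224 (Tlr8) to 1.05 TPM (Tlr13), and the ranges over mice of neighbours in that order overlapped. Within mice, Tlr6 was above Tlr7 each time, while the other neighbours changed order. At 12 weeks Tlr2 with 24.9 ± 4.46 TPM and Tlr1 with 21.0 ± 5.21 TPM led. Their ranges over mice overlapped, but Tlr2 was the higher in each mouse (25.8, 20.1 and 28.9 against 18.7, 17.3 and 26.9 TPM). Next came Tlr9 with 12.9 ± 3.54 TPM, Tlr13 with 9.73 ± 2.36 TPM and Tlr3 with 8.20 ± 0.906 TPM, where the range of each overlapped the next. Within each mouse Tlr9 was above Tlr13, while Tlr13 and Tlr3 changed order between mice. The ranges of Tlr4 with 5.02 TPM, Tlr7 with 4.72 TPM and Tlr6 with 4.51 TPM overlapped, though Tlr4 was above Tlr6 in each mouse. Tlr8 remained lowest with 2.42 TPM. Myd88 was at 14.3 ± 2.05 TPM at 4 weeks and 35.9 ± 5.12 TPM at 12 weeks.

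As a share of the summed TPM of the 9 receptors, Tlr2 and Tlr3 together made up 69.5 to 90.5% in the mice of 4 weeks and 68.5 to 85.3% in those of 6 weeks. The range was 49.0 to 75.8% at 8 weeks, 33.4 to 47.7% at 10 weeks and 33.1 to 38.0% at 12 weeks. The mice of 4 and 6 weeks did not overlap those of 10 and 12 weeks, and replicate 1 of 8 weeks lay within the range of the younger mice. Tlr1 accounted for 0.699 to 5.45% at 4 weeks and 21.1 to 23.4% at 12 weeks. The share of Tlr4 was 2.86 to 4.94% in the youngest mice and 4.52 to 5.94% in the oldest, with overlap. The sum itself was 20.6 to 30.0 TPM at 4 weeks and 76.7 to 115 TPM at 12 weeks. Shares from the authors' RPKM values were the same, since both units scale all genes of a library alike.

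**Figure D3:**
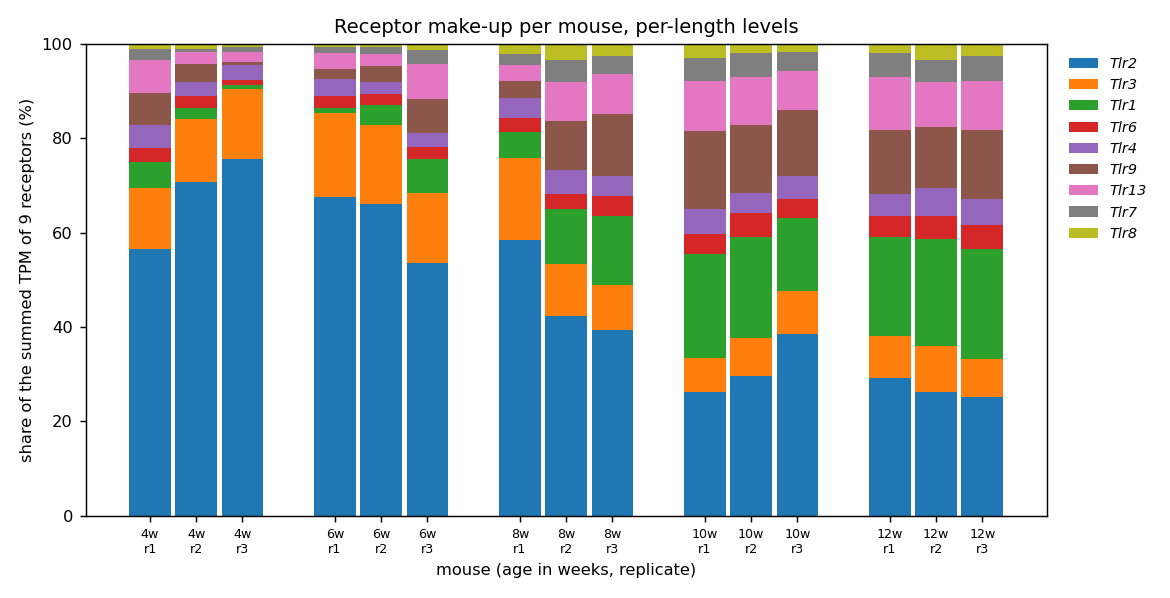
Share of each of 9 receptors in their summed TPM (percent), 1 bar per mouse, ordered by age in weeks and replicate. Tlr2 and Tlr3 (bottom 2 segments) take 69.5 to 90.5% of the bar at 4 weeks and 33.1 to 38.0% at 12 weeks, and replicate 1 of 8 weeks resembles the younger mice.

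Within an age, the members were often ordered between mice as the leukocyte markers were, though not for the lowest mouse of 12 weeks. The mean log2 CPM of 23 leukocyte markers (8 T cell, 6 B cell and 8 macrophage genes and Ptprc) was 2.06, 0.55 and -0.51 in the mice of 4 weeks and 0.11, 1.09 and 2.62 at 6 weeks. It was 2.05, 4.07 and 4.68 at 8 weeks, 6.09, 5.69 and 4.87 at 10 weeks and 5.71, 5.77 and 6.07 at 12 weeks. In the mouse with the highest marker mean of its age, 10 of 10 members were at their highest at 4 weeks, 9 at 6, 6 at 8, 10 at 10 and 9 at 12 weeks. In the mouse with the lowest marker mean, 8, 10, 10, 10 and 2 of the 10 members were at their lowest, in order of age. The share of all genes with this order was not computed, so the counts cannot be read as particular to the members. Replicate 1 of 8 weeks was thus low in all 10 members and in leukocyte markers.

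**Figure D4:**
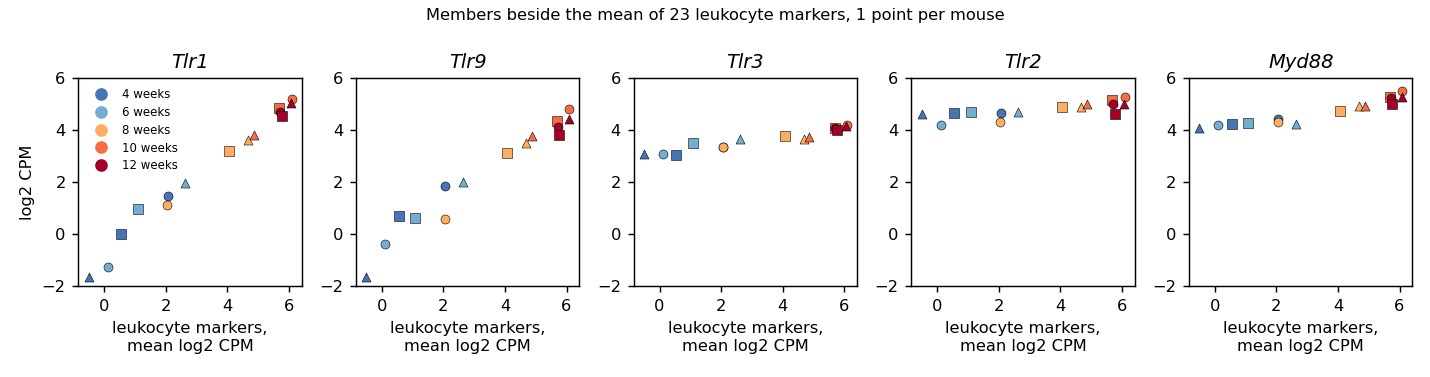
Log2 CPM of 5 members against the mean log2 CPM of 23 leukocyte markers, 1 point per mouse, coloured by age with a symbol per replicate number. Along a marker axis from -0.51 to 6.09, Tlr9 runs from -1.64 to 4.82 and Tlr1 from the same value to a higher one, while Tlr2 stays between 4.22 and 5.29, Tlr3 between 3.05 and 4.19 and Myd88 between 4.10 and 5.53.

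Markers of single leukocyte types moved in the same period. T cell markers summed to 1.48 to 29.3 CPM at 4 weeks and 296 to 408 CPM at 12 weeks, and B cell markers to 5.32 to 9.45 CPM and 304 to 460 CPM. Conventional dendritic cell markers summed to 10.8 to 29.9 CPM and 97.4 to 164 CPM, and plasmacytoid dendritic cell markers to 11.3 to 75.2 CPM and 58.6 to 125 CPM. All 8 T cell, 6 B cell, 8 macrophage and 6 conventional dendritic cell genes were called higher at 12 against 4 weeks. Over all genes tested 26.3% were called higher and 27.2% lower. Of the 4 plasmacytoid genes 2 were called higher, Siglech and Ccr9 (log2 fold change 3.31 and 4.41), but not Cox6a2 and Klk1. The plasmacytoid sum mostly followed Klk1, at 31.6 ± 36.4 CPM (SD, n = 3) at 4 weeks and 68.4 ± 34.2 CPM at 12 weeks. Siglech had means of 1.53 and 15.3 CPM at these ages, and Ccr9 of 0.413 and 8.86 CPM. Neutrophil markers summed to 0.214 to 1.83 CPM and 4.75 to 9.40 CPM over 5 genes, without overlap, and Csf3r, the 1 of them that passed the filter, was called higher (log2 fold change 3.32, adjusted p = 0.00536, edgeR), with Ly6g and Retnlg at 0 in every mouse of 6 weeks and Retnlg and S100a8 at 0 in every mouse of 8 weeks. Of 5 endothelial markers 3 were called higher and 1 lower (edgeR), and their sum was 515 to 537 CPM at 4 weeks and 628 to 664 CPM at 12 weeks, without overlap. All 5 mesenchymal markers were called higher and 7 of 8 endocrine markers lower (edgeR), while acinar markers summed to 832 to 7089 CPM at 4 weeks and 2120 to 8798 CPM at 12 weeks. The part of these cells in the rise of the members was not tested. When the mean of the 23 leukocyte markers was added to the edgeR fit as a covariate, 0 members and 0 of all 16554 genes were called at 12 against 4 weeks, with an unadjusted p under 0.05 for 1505 genes. In that fit Tlr9 had a log2 fold change of -1.86 and Tlr13 of -1.58 (adjusted p = 0.205 and 0.241, edgeR). Myd88 had 0.13 and Tlr3 0.06 (adjusted p = 0.926 and 0.966, edgeR). The covariate ran from -0.51 to 2.06 at 4 weeks and from 5.71 to 6.07 at 12 weeks, without overlap. This fit therefore cannot separate age from the leukocyte markers, and no rise or fall of a member is read from it.

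By likeness of pattern, the root mean square difference of log2 CPM over 15 mice after centring each gene, the genes nearest to Tlr1 among 16553 others were Dock2 (0.25), Cd52 (0.25) and Ptprc (0.26), the pan-leukocyte antigen CD45. Tlr9 was nearest to Bcl2a1d (0.20), and Irf8, a transcription factor of myeloid and B cells, was among its first 3 (0.25). Tlr13 was nearest to Hk2 (0.14) and Cybb (0.17), a subunit of the phagocyte NADPH oxidase, and Tlr4 to St8sia4 (0.16), with Nfkb2 among its first 3 (0.20). The nearest gene was Hsd11b1 (0.17) for Tlr6, Havcr2 (0.27) for Tlr7 and Cdh11 (0.34) for Tlr8. The members that changed least had close neighbours, Parp12 for Tlr2 (0.12), Net1 for Tlr3 (0.09) and Rnf19b for Myd88 (0.08). Genes with small changes lie close to many others on this measure.

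The wider pathway was described by 60 further genes, of which 59 passed the filter. At 12 against 4 weeks 42 were called higher and 5 lower, against 26.3% and 27.2% of all genes tested, with a median log2 fold change of 0.97. At 10 against 8 weeks 17 were called higher and 1 lower (edgeR), against 8.4% and 8.37%. The remaining receptors Tlr11, Tlr5 and Tlr12 all rose, with log2 fold changes of 3.17, 3.08 and 2.99. Tlr5, a flagellin receptor, had 7 to 9 counts in each of the youngest mice and 65 to 88 in each of the oldest.

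The other adaptors diverged. Ticam2, which links Tlr4 to Ticam1, rose with a log2 fold change of 3.04 ± 0.584 (SE, adjusted p = 0.00117, edgeR), and Sarm1, an adaptor with NAD-cleaving activity, fell by 0.52 on the log2 scale (adjusted p = 0.00339, edgeR). Ticam1, the adaptor of Tlr3, was at 24.2 ± 3.39 CPM (SD, n = 3) at 4 weeks and 22.5 ± 1.02 CPM at 12 weeks (adjusted p = 0.479, edgeR). Of 12 co-receptors, chaperones and processing factors, 9 were called higher and 1 lower, against 26.3% and 27.2% of all genes tested. Cd180, a Toll-like receptor homologue of B cells, had the highest log2 fold change (3.68), and the chaperone Hsp90b1 fell by 0.50. Unc93b1, which carries endosomal receptors out of the endoplasmic reticulum, rose from 34.5 ± 6.93 to 122 ± 16.5 CPM (SD, n = 3; adjusted p = 0.000762, edgeR).

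Of 15 kinases and ubiquitin ligases 7 rose, led by Irak2 (log2 fold change 1.29), and 2 fell, Irak1 by 0.40 and Tab1 by 0.36. In these lists a gene that rose or fell is one that was called, as were 26.3% and 27.2% of all genes tested. Irak1, the most abundant kinase of the list and one that acts directly downstream of Myd88, at 212 ± 19.6 CPM (SD, n = 3) at 4 weeks, was at 160 ± 7.07 CPM at 12 weeks. Among 8 transcription factors 7 rose, with Irf5 highest (3.35), and Irf3 had the lowest value (0.27, adjusted p = 0.0726, edgeR). Of 8 negative regulators 7 rose, with the ubiquitin-editing enzyme Tnfaip3 highest (2.66), and Tollip fell by 0.66. Among the cytokine genes known as targets, 7 of 9 tested rose. Il12a was read 0 to 1 times in the youngest mice and 21 to 23 times in the oldest, Il6 had 1 to 5 and 4 to 13 counts (adjusted p = 0.262, edgeR), and Ifnb1 did not pass the filter, with at most 1 count in any mouse.

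**Figure D5:**
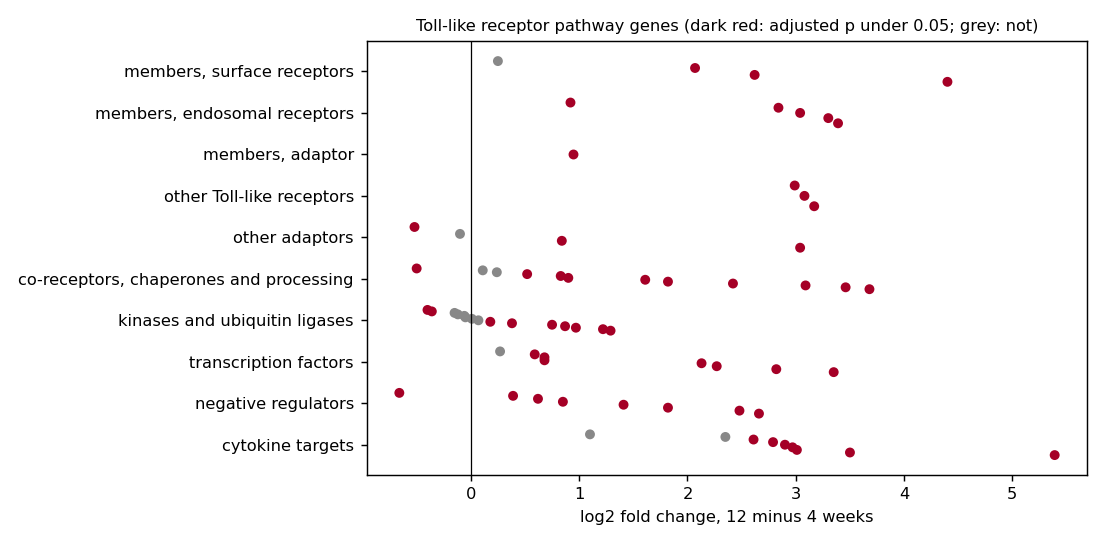
Log2 fold change at 12 minus 4 weeks (edgeR) of each tested gene of the pathway, in rows by role, dark red where the adjusted p was under 0.05. The receptor rows reach 4.40 with Tlr1 and the cytokine row 5.39 with Il12a, whereas the kinases lie between -0.40 and 1.29.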

How the data were processed

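Polyadenylated RNA of 15 islet samples was sequenced. Per the study's methods, trimming, alignment and counting used the defaults of CLC Genomics Workbench. The submitters' processing notes name the build mm10, and the regions in the deposited table are those of GRCm38. Strand use in counting is not given in the sources used here. Counts were deposited by the authors as whole reads per gene, without normalization. TPM and RPKM columns, computed by the authors per gene length and library, were used for levels compared between genes. A further 15 columns, the authors' scaled CPM, were deposited beside these and treated as a score, and were not used.

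Genes kept by filterByExpr (16554 of 48709) were scaled by TMM and fitted with edgeR 4.0.16 (glmQLFit, 1 mean per age, all 15 mice, no covariate) in R 4.3.3, and contrasts were tested by glmQLFTest with Benjamini-Hochberg adjustment over all genes tested. Log2 CPM used a prior count of 2. Single values were also compared by an exact two-sided permutation test, whose smallest p with 3 against 3 mice is 0.1. The pipeline was also run on simulated counts with equal numbers of raised and lowered genes, which does not show how it performs on these data. Alternatives were DESeq2 1.42.0 and its size factors, library totals, no filter, the 2 ages alone, the edgeR exact test, a replicate block, a covariate of leukocyte markers, a prior count of 0.5, RPKM in place of TPM and each mouse left out. Libraries held 25407492 to 41616275 counts, and a member with 5 counts is read with far less precision than one with 1570. No pair of samples held identical counts. Replicates are different mice, and the p-values of the main fit weigh a difference of age means against a spread estimated over all 15 mice.

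The members, the pathway lists and the marker lists were chosen with earlier results of these data known. The text names all members, for each pathway list its highest and lowest log2 fold change at 12 against 4 weeks, genes that fell and genes that failed the filter, and for each member its nearest genes by pattern. Tlr5, Ticam1, Unc93b1 and the single plasmacytoid markers were named after their values were seen. Promoter windows are from RefSeq (GRCm38.p6), and 50-base stretches were compared over GENCODE M21 transcripts. Figures were drawn with matplotlib 3.10.9 in Python 3.11.15.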

Additional observations from a re-analysis of the deposited data

How the results depend on the processing

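The count of 9 members called at 12 against 4 weeks was the same under every alternative run except library totals and the leukocyte covariate. With library totals it was 10, with Tlr2, and 39.6% of all genes were called higher, against 26.3% in the main fit. In the main fit 9 of 10 members also passed the DEG threshold at 12 against 4 weeks, against 20.9% of all genes higher. With the leukocyte covariate 0 members were called at 12 against 4 weeks, 0 at 10 against 8 weeks and 0 across all ages. Of all genes 0%, 0% and 0.375% were called, in that order. The DEG threshold was met as lower by 2 members, Tlr9 and Tlr13, at 12 against 4 and at 8 against 6 weeks. Over all genes 4.76% and 2.27% were lower in this way. At 10 against 8 weeks 0 members met it, against 1.81% of all genes higher and 1.69% lower. With it 0 genes of 16554 were called at 12 against 4 weeks, and 1505 had an unadjusted p under 0.05. The covariate did not overlap between 4 and 12 weeks, so age and covariate cannot be separated in that comparison. None of the negative values listed below was called, and they are not read as falls. At 8 against 6 weeks DESeq2 called 2 members, against 2.64% of all genes called higher. Leaving out each mouse gave 0 to 3 calls and 2 to 8 DEGs. Over all genes 0% to 4.29% were then called higher, and 4.09% to 11.5% were higher at the DEG threshold. At 10 against 8 weeks, where 1 was called, DESeq2 called 4, against 14.1% of all genes called higher. The 2 ages alone, the exact test and the replicate block each called 0 members, against 0%, 0.654% and 0% of all genes called higher. Leaving out each mouse gave 0 to 4 calls and 1 to 6 DEGs. Over all genes 0% to 16% were then called higher, and 5.94% to 14.2% were higher at the DEG threshold. The numbers 1 to 3 name different mice at each age and did not pair them: correlations of their deviations ran from -0.504 to 0.509. With the replicate block 9 members were called at 12 against 4 weeks, against 24.8% of all genes called higher. In that fit 2 members were DEGs at 10 against 8 weeks, against 9.8% of all genes higher, and Tlr7 changed sign at 12 against 10 weeks (-0.02). The block changed no other count of members by over 1.5 times. The joint call of Tlr2 was lost with the block and without the filter (adjusted p of 0.0688 and 0.052, edgeR). In these fits 9 members were called, against 49.6% and 38.3% of all genes. Log2 fold changes that turned negative with the covariate were at 6 against 4 weeks Tlr6 -0.13, Tlr8 -0.40, Tlr9 -0.33, Tlr13 -0.31, and at 8 against 6 weeks Tlr1 -0.54, Tlr2 -0.19, Tlr6 -0.22, Tlr3 -0.21, Tlr7 -0.19, Tlr9 -0.78, Tlr13 -0.88, and at 10 against 8 weeks Tlr1 -0.10, Tlr7 -0.23, Tlr8 -0.58, Tlr9 -0.23, Tlr13 -0.19, and at 12 against 10 weeks Tlr1 -0.17, Tlr4 -0.03, Tlr6 -0.11, Tlr7 -0.16, Tlr8 -0.05, and at 12 against 4 weeks Tlr1 -0.67, Tlr2 -0.55, Tlr4 -0.14, Tlr6 -0.16, Tlr7 -0.53, Tlr8 -0.39, Tlr9 -1.86, Tlr13 -1.58. Leaving out each mouse, log2 fold changes that changed sign belonged to no called test; they ran at 6 against 4 weeks from -0.14 to 1.81 for Tlr1, from -0.18 to 0.05 for Tlr2, from -0.50 to 0.19 for Tlr4, from -0.25 to 0.57 for Tlr6, from -0.26 to 1.53 for Tlr7, from -0.57 to 0.41 for Tlr8, from -0.68 to 1.20 for Tlr9, from -0.71 to 1.16 for Tlr13, from -0.10 to 0.06 for Myd88, and at 12 against 10 weeks from -0.24 to 0.36 for Tlr1, from -0.13 to 0.40 for Tlr4, from -0.21 to 0.16 for Tlr6, from -0.05 to 0.17 for Tlr3, from -0.25 to 0.26 for Tlr7, from -0.26 to 0.59 for Tlr8, from -0.46 to 0.06 for Tlr9, from -0.27 to 0.27 for Tlr13, from -0.22 to 0.07 for Myd88. Tlr13, at -0.00 for 12 against 10 weeks, was 0.01 with DESeq2 size factors, DESeq2, the 2 ages alone or the exact test, and 0.03 with library totals. A prior count of 0.5 and RPKM moved no value past the spread between mice. Library totals shifted the median of all genes by 0.245 at 12 against 4 weeks. The cause of these changes was not tested. As to depth, at 4 and 6 weeks Tlr7 and Tlr8 rest on 5 to 48 counts per mouse and Tlr6 on 13 to 44, and Tlr1 and Tlr9 on as few as 7 at 4 weeks.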
